A study of Rattus norvegicus with 19 samples.

Results

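The 10 genes described here are those that intercalated cells of the collecting duct use to move acid and base. They were taken by name from the probe annotation of the array: Atp6v1b1, Atp6v0a4, Atp6v0d2, Slc4a1, Slc4a9, Slc26a4, Foxi1, Car2, Rhbg and Rhcg. They are covered by 13 of 45598 probe names and make up 10 of the 24238 genes tested. Slc4a9 had 4 probes and each other gene 1. The probe standing for each of the 10 was well above background on all 19 arrays, and none was saturated, so all 10 passed the filter on low signal.

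The RNA came from renal cortex of 19 male Crl:CD (SD) rats, 1 Agilent single-colour array per animal. The 7 DKD+enarodustat rats were made diabetic with 65 mg/kg of intravenous streptozotocin, which destroys the insulin-producing beta cells, and from 7 days later ate feed containing 0.01% (w/w) enarodustat. Enarodustat blocks HIF prolyl hydroxylases and so stabilizes hypoxia-inducible factor (HIF). The 7 DKD rats had the same injection and plain feed, and the 5 Sham rats had vehicle and plain feed. Kidneys were taken 14 days after the rats were allotted to groups. The diabetic rats were picked from 19 injected ones so that glucose and weight were alike in the treated and untreated group. The age of the rats is not given in the sources used here.

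Intercalated cells are the minority cells of the connecting tubule and collecting duct that regulate acid-base balance. Type A cells pump protons into the urine through an apical vacuolar H+-ATPase and return bicarbonate to the blood through the anion exchanger AE1, while type B cells secrete bicarbonate and take up chloride through pendrin on their apical side. Both depend on the forkhead transcription factor Foxi1 and on carbonic anhydrase II, which supplies protons and bicarbonate, and Rh glycoproteins help the collecting duct pass ammonia into the urine.

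The 60-base probes of the members whose results are described first are shown because each measurement is the signal of that one stretch of transcript. Coordinates are those of rat build rn4 in the headers. The Slc26a4 probe lies at chr6:49394773-49395832 on the minus strand and the Rhcg probe at chr1:135362944-135367057 on the minus strand. Both intervals are longer than the probe. The Slc4a9 probes of the annotated transcript lie on the plus strand at chr18:29179037-29179466, the one that stands for the gene, and at chr18:29177611-29177670.
Slc26a4: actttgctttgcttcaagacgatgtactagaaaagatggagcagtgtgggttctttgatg
Rhcg: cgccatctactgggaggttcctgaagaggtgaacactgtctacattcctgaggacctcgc
Slc4a9, standing for the gene: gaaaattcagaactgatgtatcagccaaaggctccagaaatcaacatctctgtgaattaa
Slc4a9, other probe: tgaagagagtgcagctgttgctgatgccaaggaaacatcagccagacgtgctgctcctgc

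Levels below are log2 of the processed intensity minus the 75th percentile of its array, so that 0 is the 75th percentile. Differences are in the same log2 units, with the standard error of a fit of all 3 groups in limma, and a gene was called changed at an adjusted p under 0.05 (Benjamini-Hochberg over all genes of the comparison). Arrays of 1 group correlated at 0.968 to 0.990 over all genes. The share of probes above background was 54.4% to 63.0% on DKD+enarodustat arrays, 54.7% to 67.3% on DKD arrays and 61.0% to 66.9% on Sham arrays. Every group was spread over the 3 slides. Slide row was tied to group, since row 2 held all 7 DKD+enarodustat arrays and DKD replicates 2 and 4, and row 1 held the other 5 DKD arrays and all 5 Sham arrays. The 2 DKD arrays of row 2 had 54.7% and 57.7% of probes above background, against 62.5% to 67.3% on the 5 of row 1. The part of this detection share in the lower member levels was not tested. The 3 comparisons share arrays with one another, so they are not independent of each other. In whole cortex RNA, fewer cells of a type and less RNA per cell cannot be told apart.

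**Figure D1:**
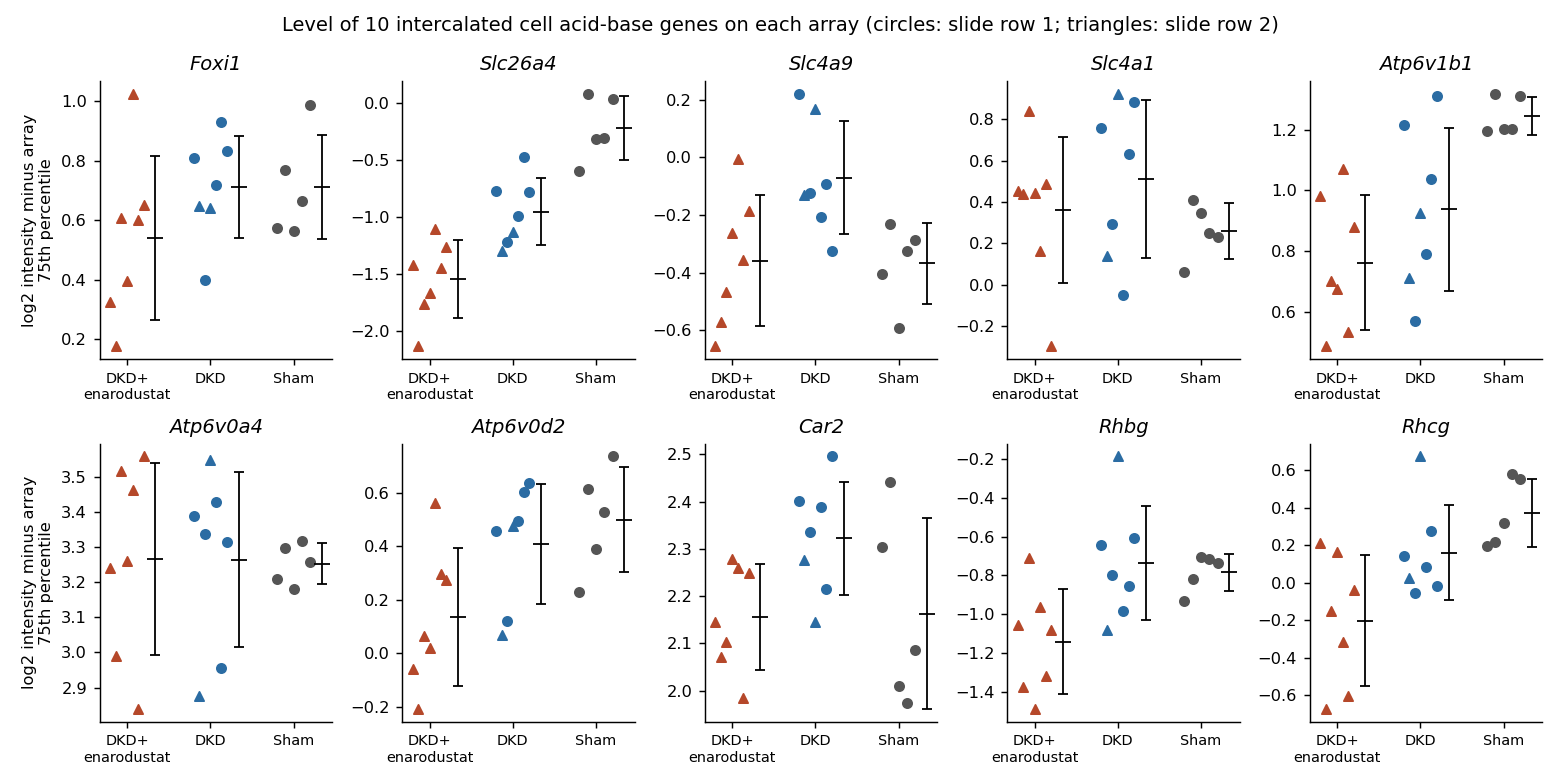
Level of each of the 10 genes on each array (log2 processed intensity minus the array's 75th percentile), with 1 point per rat (circles for slide row 1, triangles for row 2), DKD+enarodustat left of DKD and DKD left of Sham, and the group mean with its SD. Slc26a4 stood lowest in DKD+enarodustat, at a mean of -1.55, against -0.96 in DKD and -0.22 in Sham, whereas Atp6v0a4 averaged 3.27, 3.26 and 3.25 in the same order of groups.

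Slc26a4, which encodes pendrin, the chloride/bicarbonate exchanger of type B and related intercalated cells, was the member that differed most. Its level was -2.14 in the lowest, -1.45 in the median and -1.11 in the highest DKD+enarodustat rat. In DKD rats the lowest, median and highest levels were -1.30, -0.998 and -0.48. The 5 Sham rats had levels of -0.60, 0.08, -0.32, -0.31 and 0.04. All 7 DKD+enarodustat rats lay below every Sham rat, and 6 of 7 DKD rats did so. The DKD+enarodustat and DKD ranges overlapped, with 5 of 7 DKD+enarodustat rats below every DKD rat.

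Between DKD and Sham, Slc26a4 was the 1 member of 10 that was called: it fell by 0.73 ± 0.18 (SE), a 1.66-fold lower signal (adjusted p = 0.00773 in limma, 95% interval of the difference -1.10 to -0.36). No member was called higher. Of all 24238 genes, 17.1% were called in this comparison, 8.02% higher and 9.07% lower, so 1 member in 10 is near the background. For 0 members were the groups free of overlap, as they were for 10.7% of all genes, 5.8% toward lower levels. The median difference of the 10 members was 0.01, against -0.02 over all genes, and 5 of the 10 differences were below zero, against 53.1% of all genes.

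Between DKD+enarodustat and DKD no member was called at an adjusted p under 0.05 in limma. Of all genes, 2% were called (1.07% higher and 0.928% lower). An unadjusted p under 0.05 was found for 5 members (Slc26a4, Rhbg, Slc4a9, Rhcg and Atp6v0d2). The share of all genes at that unadjusted threshold is not given here. This count, and the unadjusted counts of other lists below, are therefore given without a background and are not read as a result about the lists. The Slc26a4 difference was -0.59 ± 0.16 (adjusted p = 0.0694, interval -0.93 to -0.25). With slide as a block its adjusted p was 0.0164 at the same difference, and in the authors' value table the difference was -0.47 with an adjusted p of 0.00768. With slide row as a covariate the difference was -0.33 and the adjusted p 0.794. Without DKD+enarodustat replicate 5 the difference was -0.66 and the adjusted p 0.0449. No member had groups free of overlap, against 1.25% of all genes, 0.565% toward lower levels. Of the 10 differences, 9 were below zero, against 55.7% of all genes, with a median of -0.22 against -0.02 over all genes and a range of -0.59 to 0.00.

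When DKD+enarodustat was set against Sham, 3 of 10 members were called, all lower: Slc26a4, Atp6v1b1 and Rhcg. In this comparison 26.1% of all genes were called, 10% higher and 16% lower, and 14.4% had groups free of overlap, 8.85% toward lower levels, as did 2 members. Slc26a4 fell by 1.32 ± 0.18, a 2.50-fold lower signal (adjusted p = 3.33e-05, interval -1.70 to -0.95). The median difference of the 10 members was -0.26, against -0.04 over all genes, and 7 of 10 were below zero, against 55.4%. With slide row as a covariate, which only the 2 DKD arrays of row 2 separate from group, none of the 3 calls held: the differences were -0.96 for Slc26a4 (adjusted p = 0.0813), -0.32 for Atp6v1b1 (adjusted p = 0.504) and -0.84 for Rhcg (adjusted p = 0.0983). Those 2 arrays stood apart from the other DKD arrays in other markers: their log2 summed levels were 4.05 and 4.32 for adipocyte markers, against 2.17 to 2.77, and 6.69 and 6.98 for erythroid markers, against 4.28 to 5.81.

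The slides and rows gave the following within-batch values for Slc26a4. DKD over Sham gave -0.78 on slide 1 and -0.86 on slide 2, each with 2 arrays a group, and -0.63 (adjusted p = 0.0371) among the arrays of row 1. DKD+enarodustat over DKD gave -0.75, -0.54 and -0.52 on slides 1, 2 and 3, and -0.33 (adjusted p = 0.941) among the arrays of row 2, where only 2 DKD arrays lie. DKD+enarodustat over Sham gave -1.52 on slide 1 and -1.40 on slide 2, and no row held both groups. Slide 3 held 1 Sham array. The difference was below zero in each of these subsets. The 5 DKD arrays of row 1 averaged -0.85 and the 2 of row 2 averaged -1.22.

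**Figure D2:**
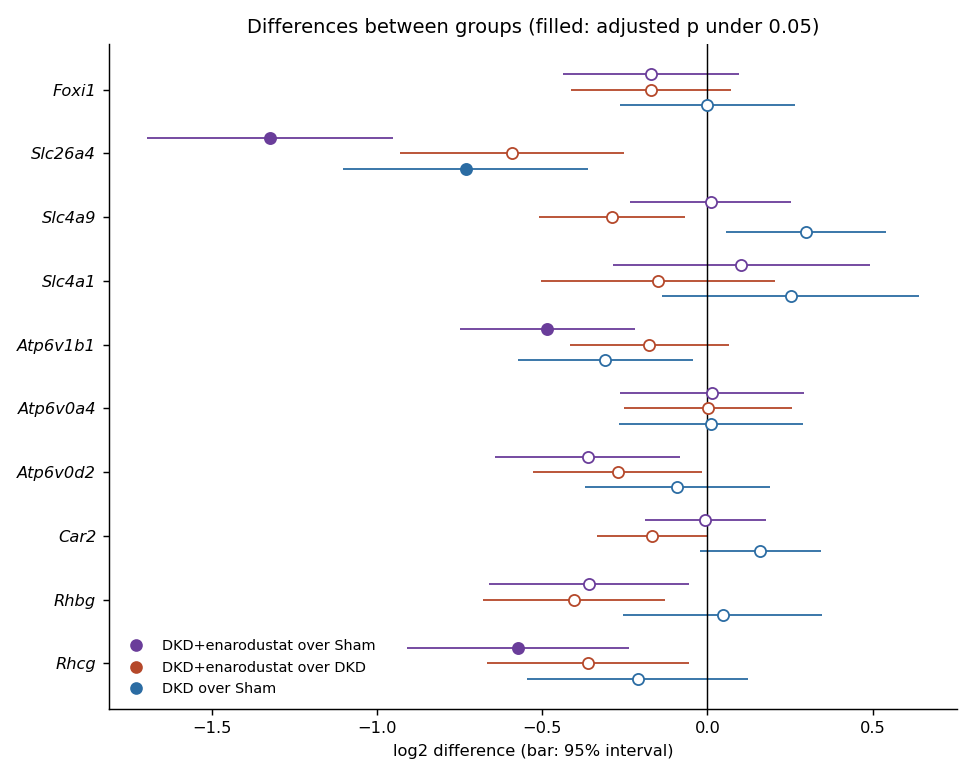
Log2 difference of each of the 10 genes in the 3 comparisons, with its 95% interval from the limma fit; filled points passed the adjusted p threshold. Slc26a4 passed in DKD over Sham (-0.73) and DKD+enarodustat over Sham (-1.32), Atp6v1b1 and Rhcg passed in DKD+enarodustat over Sham, and the Atp6v0a4 points lie at 0.01, 0.00 and 0.01.

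Slc4a9 encodes AE4, an anion transporter that marks type B cells. Its level was -0.66 in the lowest, -0.36 in the median and -0.01 in the highest DKD+enarodustat rat, and -0.32, -0.12 and 0.22 in DKD. The 5 Sham rats had -0.40, -0.23, -0.59, -0.33 and -0.29. In 6 of 7 DKD rats it lay above every Sham rat, the opposite order to Slc26a4, but the difference of 0.30 ± 0.12 was not called (adjusted p = 0.088, limma). The other differences were -0.29 ± 0.11 over DKD (adjusted p = 0.198) and 0.01 ± 0.12 over Sham (adjusted p = 0.97). The other probe of the annotated Slc4a9 transcript gave 0.15, -0.29 and -0.14 in DKD over Sham, DKD+enarodustat over DKD and DKD+enarodustat over Sham, none of them called. The remaining 2 probes, of predicted transcripts, were above background on 18 of 19 arrays and gave no call.

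Slc4a1 encodes AE1, the basolateral chloride/bicarbonate exchanger of type A cells, which is also the band 3 protein of red cells. It averaged 0.36 ± 0.35 in DKD+enarodustat, 0.51 ± 0.38 in DKD and 0.26 ± 0.13 in Sham (SD, n = 7, 7 and 5). The DKD+enarodustat rats ran between -0.30 and 0.84, the DKD rats between -0.05 and 0.92, and the Sham rats between 0.06 and 0.41, so the groups overlapped. Its differences were 0.25 ± 0.18 in DKD over Sham (adjusted p = 0.424), -0.15 ± 0.17 in DKD+enarodustat over DKD (adjusted p = 0.817) and 0.10 ± 0.18 in DKD+enarodustat over Sham (adjusted p = 0.759). Because red cells carry the same gene, 16 erythroid markers were read beside it. Of these, 11 passed the filter and 0 were called in any of the comparisons in limma (1, 0 and 2 had an unadjusted p under 0.05 in DKD over Sham, DKD+enarodustat over DKD and DKD+enarodustat over Sham), with medians of 0.36, 0.35 and 0.72 for the same 3 comparisons. Their log2 summed level ran from 4.32 to 8.02 in DKD+enarodustat, from 4.28 to 6.98 in DKD and from 4.74 to 5.62 in Sham, while Rhag, Gata1 and Epb42 were above background on 0 arrays. Their part in the Slc4a1 signal was not tested.

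Atp6v1b1, Atp6v0a4 and Atp6v0d2 encode the B1, a4 and d2 subunits of the vacuolar H+-ATPase. Intercalated cells use these isoforms, but they were not shown here to be in those cells alone. Atp6v1b1 had levels of 0.49, 0.70 and 1.07 in the lowest, median and highest DKD+enarodustat rat, and 0.57, 0.93 and 1.31 in DKD. The 5 Sham rats had 1.19, 1.32, 1.20, 1.20 and 1.31, with an SD of 0.06. All 7 DKD+enarodustat rats lay below every Sham rat, a separation toward lower levels that 8.85% of all genes had in that comparison. Atp6v1b1 fell by 0.48 ± 0.13 in DKD+enarodustat over Sham (adjusted p = 0.00819, limma). The difference between DKD and Sham was -0.31 ± 0.13 (adjusted p = 0.106), with 5 of 7 DKD rats below every Sham rat. It passed in the authors' value table (-0.29, adjusted p = 0.0302) and without DKD replicate 7 (-0.37, adjusted p = 0.0451). Its DKD+enarodustat over DKD difference was -0.18 ± 0.11 (adjusted p = 0.564).

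Atp6v0d2 averaged 0.14 ± 0.26 in DKD+enarodustat, 0.41 ± 0.22 in DKD and 0.50 ± 0.20 in Sham (SD). The difference was -0.09 ± 0.13 in DKD over Sham (adjusted p = 0.745) and -0.27 ± 0.12 in DKD+enarodustat over DKD (adjusted p = 0.328, and 0.0224 in the authors' value table). Against Sham, the DKD+enarodustat difference was -0.36 ± 0.13 (adjusted p = 0.0536), which was not called. It passed 0.05 only in alternative fits. With the replicate number as a block it was -0.43 (adjusted p = 0.00831) and with slide as a block -0.44 (adjusted p = 0.00173). In the authors' value table it was -0.38 (adjusted p = 0.000732). When a gene had to be above background on all arrays of a group, it was -0.36 (adjusted p = 0.0459 in limma). It also passed without Sham replicate 1 (adjusted p = 0.0351) and without DKD+enarodustat replicate 5 (adjusted p = 0.0173). Atp6v0a4 did not separate the groups: its differences were 0.01 ± 0.13, 0.00 ± 0.12 and 0.01 ± 0.13 in DKD over Sham, DKD+enarodustat over DKD and DKD+enarodustat over Sham, and the 95% intervals allowed -0.27 to 0.29, -0.25 to 0.26 and -0.26 to 0.29. Which cells of the cortex gave the Atp6v0a4 signal was not tested.

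Rhcg and Rhbg encode the ammonia channels of the collecting duct, on the apical and basolateral side for Rhcg and the basolateral side for Rhbg. Rhcg had levels of -0.67, -0.15 and 0.21 in the lowest, median and highest DKD+enarodustat rat, and -0.06, 0.08 and 0.67 in DKD. The 5 Sham rats had 0.20, 0.22, 0.32, 0.58 and 0.55. In 6 of 7 DKD+enarodustat rats it lay below every Sham rat. Rhcg fell by 0.57 ± 0.16 in DKD+enarodustat over Sham (adjusted p = 0.0125, limma). The DKD over Sham difference was -0.21 ± 0.16 (adjusted p = 0.44), and in DKD+enarodustat over DKD it was -0.36 ± 0.15 (adjusted p = 0.257). Neither of these was called.

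Rhbg averaged -1.14 ± 0.27 in DKD+enarodustat, -0.74 ± 0.29 in DKD and -0.78 ± 0.10 in Sham (SD). Its difference was 0.05 ± 0.14 in DKD over Sham (adjusted p = 0.901) and -0.36 ± 0.14 in DKD+enarodustat over Sham (adjusted p = 0.0755). Without DKD+enarodustat replicate 3, Rhbg was called against Sham (-0.43, adjusted p = 0.0286). Its difference between DKD+enarodustat and DKD was -0.40 ± 0.13 (adjusted p = 0.134), and in the authors' value table it was -0.31 (adjusted p = 0.0486).

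Foxi1, the transcription factor that intercalated cells need in order to form, and Car2, the cytosolic carbonic anhydrase, were called in none of the 3 comparisons in limma. Foxi1 averaged 0.54 ± 0.28 in DKD+enarodustat, 0.71 ± 0.17 in DKD and 0.71 ± 0.17 in Sham (SD). Its difference in DKD over Sham was 0.00 in size with a 95% interval of -0.27 to 0.27, and in DKD+enarodustat over DKD it was -0.17 ± 0.12 (adjusted p = 0.583). Car2 averaged 2.16 ± 0.11, 2.32 ± 0.12 and 2.16 ± 0.20 in DKD+enarodustat, DKD and Sham. Its differences were 0.16 ± 0.09 in DKD over Sham (adjusted p = 0.245), -0.17 ± 0.08 in DKD+enarodustat over DKD (adjusted p = 0.367) and -0.01 ± 0.09 in DKD+enarodustat over Sham (adjusted p = 0.973). Car2 is also expressed outside intercalated cells, so its level does not belong to them alone.

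Slc26a4 and Foxi1 were set against each other because one was called and the other was not; this pair was chosen after the values were seen, and no test is given. On each array the Slc26a4 level minus the Foxi1 level was -2.38, -2.06 and -1.75 in the lowest, median and highest DKD+enarodustat rat, -1.95, -1.62 and -1.41 in DKD, and -1.18, -0.95 and -0.69 in Sham. The DKD+enarodustat and DKD rats all lay below every Sham rat on this difference. They also did so for Slc26a4 minus Atp6v0d2, minus Slc4a9 and minus Slc4a1. Atp6v1b1 minus Foxi1 overlapped, at 0.06 to 0.48 in DKD and 0.33 to 0.64 in Sham. Rhcg minus Foxi1 overlapped too, at -0.85 to 0.03 in DKD and -0.55 to -0.09 in Sham. The share of all gene pairs that separate the groups was not computed. The Slc26a4 minus Foxi1 difference restates the values that prompted the choice of the pair, and it says nothing of which transcript is the more abundant.

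**Figure D3:**
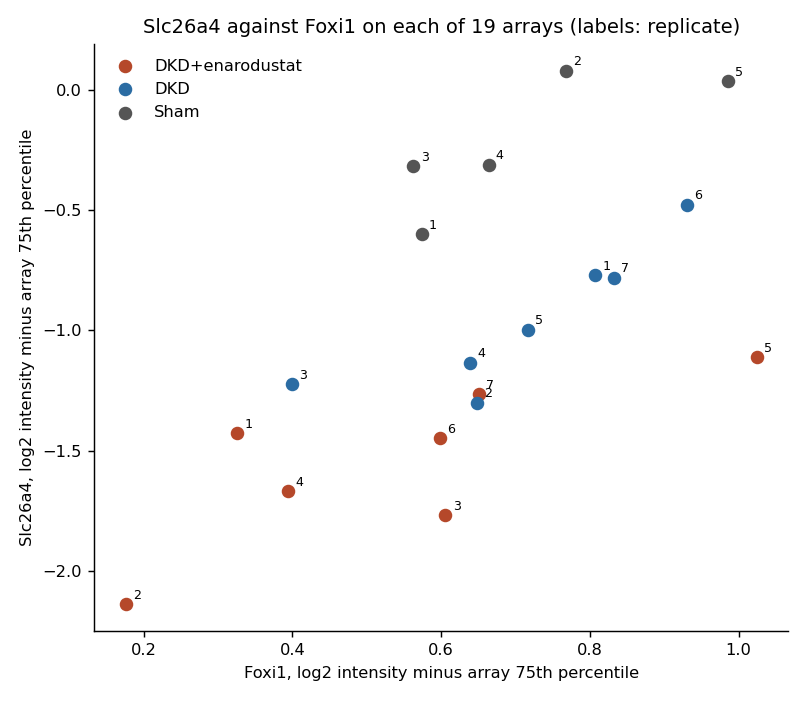
Slc26a4 level against Foxi1 level on each of the 19 arrays (log2 processed intensity minus the array's 75th percentile), with 1 point per rat coloured by group. The Sham points lie above those of both diabetic groups at a given Foxi1 level, with mean Slc26a4 levels of -1.55 in DKD+enarodustat, -0.96 in DKD and -0.22 in Sham.

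Within the groups, the members did not all vary together from rat to rat. Over the 19 arrays, deviations from the group mean were compared for the 45 pairs of members, and 38 of the 45 correlations were positive, with a median r of 0.27 and a range of -0.20 to 0.89. After Benjamini-Hochberg adjustment over the 45 pairs, 5 pairs passed 0.05 in a two-sided permutation test with 100000 resamples within groups on r, and 4 on rho. These resamples mix arrays of different slides. When arrays were permuted only within group and slide, on deviations from both (2304 permutations, an exact test added after seeing the data), 2 pairs passed on r and 5 on rho after adjustment. The highest was Atp6v0d2 with Foxi1, at r = 0.89 (permutation p = 1e-05, the smallest that these resamples can give, adjusted 0.00045) and rho = 0.88 (permutation p = 2e-05), and r was 0.92 without the 2 arrays farthest from the median of Atp6v0d2. Atp6v0d2 with Slc26a4 had r = 0.85 (adjusted permutation p = 0.00112) and rho = 0.84 (adjusted 0.00225), and r = 0.79 without the 2 farthest arrays. Slc26a4 with Foxi1 had r = 0.80 (adjusted permutation p = 0.0036) and rho = 0.76 (adjusted 0.0081), and r = 0.73 without the 2 farthest.

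Atp6v1b1 with Slc26a4 had r = 0.72 (adjusted permutation p = 0.0129) and rho = 0.77 (adjusted 0.00765), and r = 0.69 without the 2 farthest. The fifth pair, Atp6v1b1 with Foxi1, had r = 0.63 (adjusted permutation p = 0.0481) and rho = 0.61 (adjusted 0.0874), and r = 0.52 without the 2 farthest. Slide accounted for 62.1% of the within-group variance of Atp6v0d2, 51.3% of that of Foxi1 and 43.9% of that of Slc26a4, so within-slide values stand beside the pooled ones. Within slides, r was 0.79 for Atp6v0d2 with Foxi1, 0.76 for Atp6v0d2 with Slc26a4, 0.62 for Slc26a4 with Foxi1 and 0.71 for Atp6v1b1 with Slc26a4. The exact permutation p on r within group and slide, adjusted over 45 pairs, was 0.0488 for Atp6v0d2 with Foxi1, 0.0586 for Atp6v0d2 with Slc26a4, 0.0488 for Slc26a4 with Foxi1, 0.102 for Atp6v1b1 with Slc26a4 and 0.0586 for Atp6v1b1 with Foxi1, over 19 arrays. On rho in the same exact test, Foxi1 passed with Atp6v0d2, Slc26a4 and Atp6v1b1, and Atp6v1b1 passed with Atp6v0d2 and Rhbg (adjusted p = 0.0469 each). Atp6v0d2 with Slc26a4 (adjusted p = 0.083) and Atp6v1b1 with Slc26a4 (adjusted p = 0.107) did not pass on rho there. The median r within slides over the 45 pairs was 0.38 and 40 of them were positive. Slc4a1 and Foxi1 had r = -0.02 over all arrays and 0.32 within slides.

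**Figure D4:**
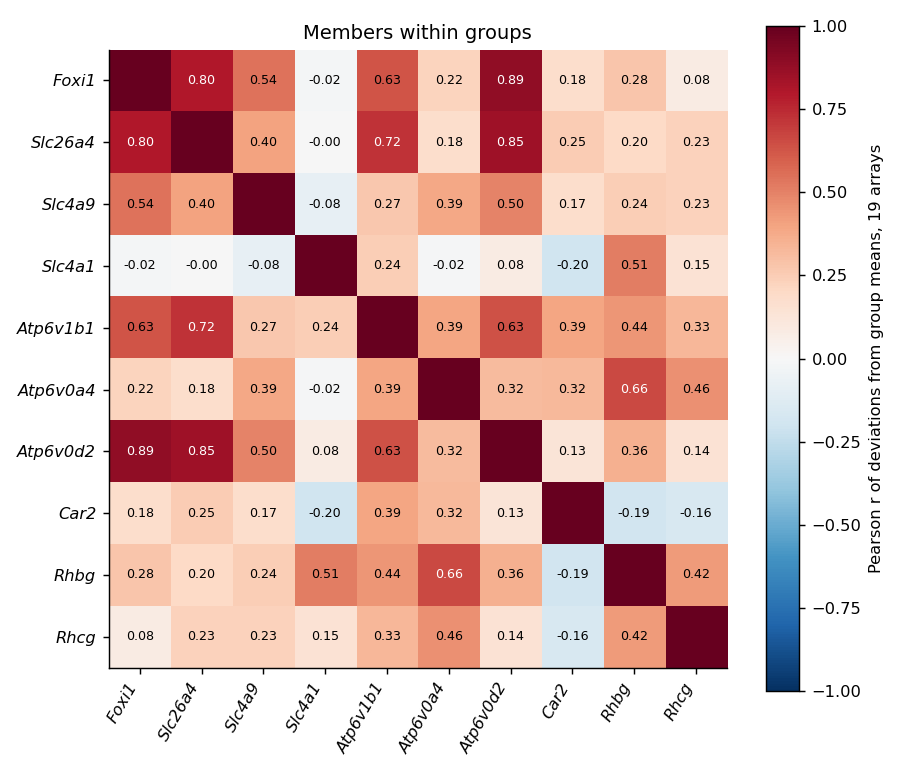
Pearson correlation of the deviations from the group mean for each of the 45 pairs of members over 19 arrays. Atp6v0d2, Foxi1, Slc26a4 and Atp6v1b1 have values from 0.63 to 0.89 among themselves (0.60 to 0.79 within slides). Pairs outside this set reach similar values. Atp6v0a4 with Rhbg lies at 0.66 (0.61 within slides). Within slides Slc4a9 lies at 0.66 with Foxi1 and 0.65 with Atp6v0d2, and Atp6v1b1 with Rhbg at 0.64. Slc4a1 with Foxi1 lies at -0.02 (0.32 within slides).

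The genes of the whole table most like each member in these deviations were named by the highest r over the 19 arrays, as a description with no test, since all of them share slides and normalization. For Slc26a4 they were Atp6v1g3 (r = 0.90), Iqgap2 (0.90) and Hepacam2 (0.90). Atp6v1g3 encodes a kidney isoform of a V-ATPase subunit, and both it and Hepacam2 are on the list of other intercalated cell genes. For Atp6v0d2 they were Foxi1 (0.89), Hepacam2 (0.86) and Atp6v1g3 (0.85). For Rhbg they were Amt (0.91), Slc22a6 (0.89) and Gcsh (0.87), of which Slc22a6 encodes the organic anion transporter OAT1 of proximal tubule and Amt and Gcsh encode parts of the glycine cleavage system. For Foxi1 they were Atp6v0d2, Klhl21 (0.80) and Vkorc1l1 (0.80).

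Other genes of intercalated cells moved in both directions. Of 22 on the list, 21 passed the filter and Slc26a11 was above background on 0 arrays. The listed genes were not shown here to be expressed in intercalated cells alone. Which cells of the cortex gave their signals was not tested, and 5 of 8 thick ascending limb markers were also lower in DKD over Sham. Against Sham, DKD rats had 4 of the 21 higher and 3 lower, to be read against 17.1% of all genes, with a median of 0.00. Kit, a receptor tyrosine kinase, was 0.68 ± 0.11 higher (adjusted p = 0.000369), and Dmrt2, a transcription factor, was 0.63 ± 0.13 higher (adjusted p = 0.00289). Bsnd, the barttin subunit of the basolateral chloride channels, fell by 0.46 ± 0.10 (adjusted p = 0.00402). The other calls were Adgrf5 and Aqp6, higher, and Slc12a7 and Slc4a8, lower. Between DKD+enarodustat and DKD 0 of 21 were called in limma, 3 had an unadjusted p under 0.05, and the smallest adjusted p were those of Atp6v1c2 (-0.39 ± 0.13, 0.16), Hepacam2 (-0.33 ± 0.13, 0.268) and Oxgr1 (-0.47 ± 0.21, 0.327). DKD+enarodustat over Sham gave 4 higher and 6 lower, and with slide row as a covariate none of these calls held.

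The calls in the lists from here on are to be read against all genes. Of all genes, 17.1% were called in DKD over Sham, 2% in DKD+enarodustat over DKD and 26.1% in DKD+enarodustat over Sham. The V-ATPase subunits that many cell types share were measured for 20 of 20. DKD over Sham had 1 higher (Atp6v1d, 0.29 ± 0.07, adjusted p = 0.0133) and 2 lower (Atp6v0d1, -0.40 ± 0.07, adjusted p = 0.00105, and Atp6v0a2, -0.23 ± 0.07, adjusted p = 0.0323). Atp6v0d1 is the widely expressed counterpart of Atp6v0d2. DKD+enarodustat over DKD had 1 lower, Atp6ap2, an accessory subunit also known as the prorenin receptor (-0.32 ± 0.08, adjusted p = 0.0415), while 5 of 20 had an unadjusted p under 0.05. No subunit was called lower there when any single DKD rat but replicate 4, or any single DKD+enarodustat rat but replicate 5, was left out. DKD+enarodustat over Sham had 1 higher, Tcirg1, which encodes the a3 subunit (0.41), and 6 lower, none of which was called with slide row as a covariate.

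Of the closest relatives of the members, 11 of 13 other carbonic anhydrases passed the filter. DKD over Sham had 1 higher and 2 lower: Car3, at 5.97 ± 1.30 (adjusted p = 0.00391), Car5b, at -0.64 ± 0.16 (adjusted p = 0.0111), and Car7, at -0.50 ± 0.16 (adjusted p = 0.0368). Car3 is abundant in adipocytes and muscle, and 3 of 8 adipocyte markers were higher in the same comparison. Of these, Lep was above background on 4 of 7 DKD arrays and 0 of 5 Sham arrays. It therefore passed the filter only through the diabetic groups. The log2 summed levels of the adipocyte markers were 1.89 to 3.31 in DKD+enarodustat, 2.17 to 4.32 in DKD and 1.66 to 2.15 in Sham. Their part in the Car3 signal was not tested. Of 17 further SLC4, SLC26 and Rh genes 12 passed the filter, and in DKD over Sham 1 was called lower, Slc4a10. It was above background on 1 of 7 DKD arrays and 4 of 5 Sham arrays, so it passed the filter mostly through Sham, no size is given for its difference, and it was not among the genes tested when a gene had to be above background on all arrays of a group. None of these carbonic anhydrases and relatives was called in DKD+enarodustat over DKD in limma, with 1 of 11 and 1 of 12 at an unadjusted p under 0.05.

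Principal cells are the sodium- and water-handling neighbours of intercalated cells in the collecting duct. Of 12 principal cell markers, 4 were higher and 1 lower in DKD over Sham, where 8.02% of all genes were higher and 9.07% lower. Aqp4, the basolateral water channel, was higher by 1.56 ± 0.21 (adjusted p = 5.19e-05), Aqp2, the vasopressin-regulated apical water channel, by 0.61 ± 0.08 (adjusted p = 6.84e-05) and Fxyd4, a regulator of the sodium pump, by 0.52 ± 0.12 (adjusted p = 0.00493). Between DKD+enarodustat and DKD 0 of 12 were called in limma, and 1 had an unadjusted p under 0.05. The log2 summed level of these markers ran from 5.96 to 6.40 in DKD+enarodustat, from 5.92 to 6.23 in DKD and from 5.68 to 5.88 in Sham, a sum that the brightest markers weigh on most. The lower call was Hsd11b2, which protects the mineralocorticoid receptor from glucocorticoids, at -0.61 ± 0.15 (adjusted p = 0.00936). The median difference over the 12 markers was 0.09 in DKD over Sham and -0.07 in DKD+enarodustat over Sham.

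Markers of other cells in the cortex also differed. DKD rats had, against Sham, 5 of 8 thick ascending limb markers and 6 of 11 proximal tubule markers lower, and 2 of the 11 proximal, 3 of 9 macrophage and 1 of 7 distal convoluted tubule markers higher. None of these was called in DKD+enarodustat over DKD in limma, where 1 thick ascending limb and 1 macrophage marker had an unadjusted p under 0.05. The log2 summed level of the macrophage markers ran from 4.14 to 4.84 in DKD+enarodustat, from 3.80 to 4.44 in DKD and from 3.61 to 3.81 in Sham. Acp5, which was 0.55 higher in DKD over Sham and 0.92 higher in DKD+enarodustat over Sham, had the brightest signal in that sum. Adgre1 had differences of -0.29 and -0.34 and Aif1 of -0.30 and -0.15 in these comparisons, none called, and the median level over the macrophage markers overlapped, at -2.49 to -1.37 in DKD+enarodustat, -2.79 to -1.66 in DKD and -2.44 to -2.13 in Sham. The summed level of the thick ascending limb markers ran from 6.07 to 6.82 in DKD+enarodustat, from 5.80 to 6.75 in DKD and from 6.91 to 7.17 in Sham. Their part in the Slc26a4, Atp6v1b1 and Rhcg results was not tested.

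**Figure D5:**
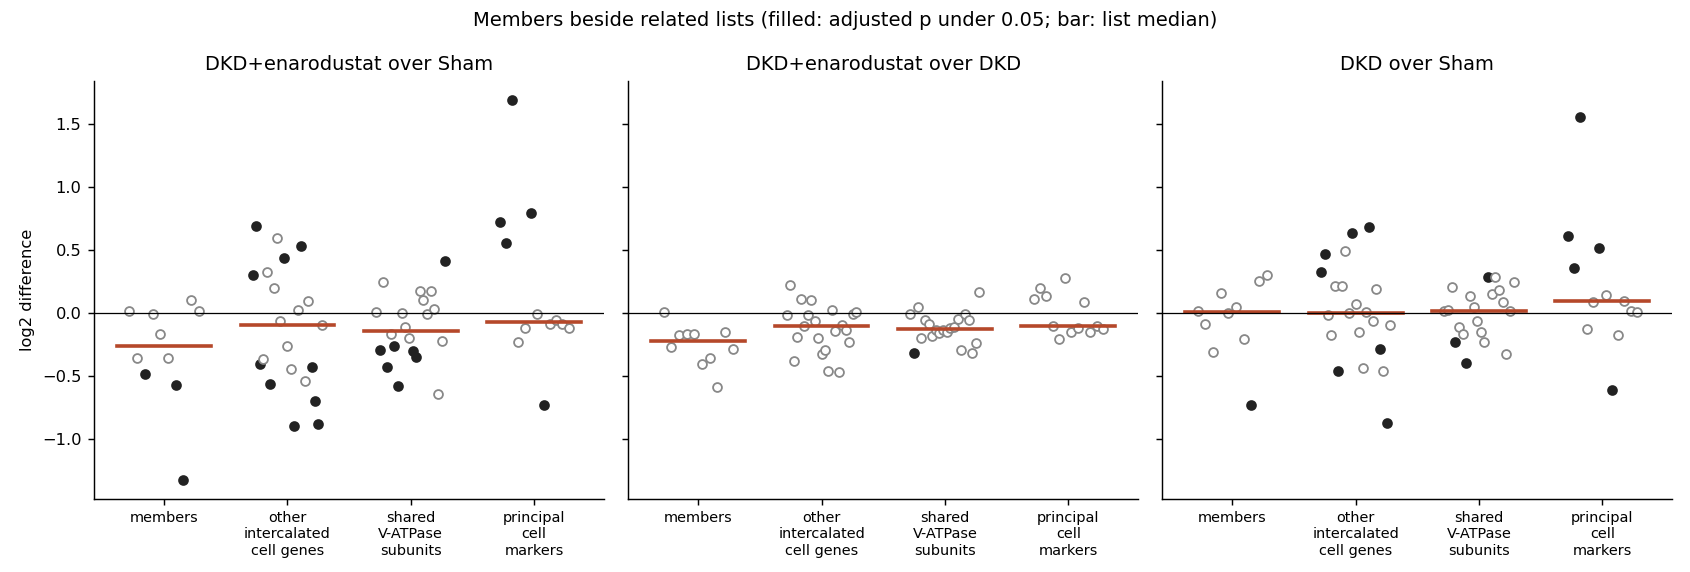
Log2 difference of each measured gene among the 10 members, the other intercalated cell genes, the shared V-ATPase subunits and the principal cell markers, with 1 point per gene, 1 panel per comparison, filled points for an adjusted p under 0.05 and a bar at the list median. Filled points lie on both sides of 0 among the other intercalated cell genes in DKD over Sham (4 higher, 3 lower), and the DKD+enarodustat over DKD panel holds 1 filled point, the lower Atp6ap2.

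The stretches upstream of Slc26a4, Atp6v1b1 and Rhcg are shown because these members were called in DKD+enarodustat over Sham, a comparison that joins diabetes and drug. As background, HIF binds a hypoxia response core and Foxi1 is a forkhead factor. The part of either in these differences was not tested. The 250 bases before the annotated start are given, from RefSeq on GRCr8, in which 7 of the 10 members were matched (Car2, Atp6v0d2 and Slc4a1 were not). Capitals mark matches to ACGTG or GCGTG (hypoxia response core) and TGTTTA (forkhead core), searched on both strands. No match to one of these overlaps another.
Slc26a4, chr6:53873217-53873466, minus strand: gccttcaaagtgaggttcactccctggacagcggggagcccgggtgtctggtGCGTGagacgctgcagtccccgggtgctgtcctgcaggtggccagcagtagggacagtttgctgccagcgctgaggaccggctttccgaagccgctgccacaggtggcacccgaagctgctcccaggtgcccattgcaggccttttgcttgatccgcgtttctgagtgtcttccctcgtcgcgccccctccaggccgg
Atp6v1b1, chr4:117781194-117781443, plus strand: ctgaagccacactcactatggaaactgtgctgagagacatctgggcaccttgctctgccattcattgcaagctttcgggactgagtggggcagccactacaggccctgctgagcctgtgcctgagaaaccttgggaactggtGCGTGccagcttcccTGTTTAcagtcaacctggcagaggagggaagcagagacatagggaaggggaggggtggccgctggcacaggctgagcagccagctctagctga
Rhcg, chr1:142965163-142965412, minus strand: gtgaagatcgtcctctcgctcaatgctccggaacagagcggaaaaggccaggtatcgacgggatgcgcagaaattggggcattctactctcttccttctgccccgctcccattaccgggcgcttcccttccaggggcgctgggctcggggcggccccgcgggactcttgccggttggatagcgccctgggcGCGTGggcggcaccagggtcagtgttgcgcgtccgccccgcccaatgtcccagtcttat

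The search covered 250 bases before to 50 after each start. GCGTG stood at -198 in Slc26a4, at -108 in Atp6v1b1 and at -59 in Rhcg relative to the start, and 29.7% of the 33469 promoters of the same length in the table held it. TGTTTA stood at -93 in Atp6v1b1, and 13.7% of promoters held it. Of the other members, Foxi1 had ACGTG at -235, which 19.3% of promoters held, and Atp6v0a4, Slc4a9 and Rhbg had none of the 3 motifs in this window. Either hypoxia core was held by 41.6% of promoters. A match is a stretch of letters and not a measured binding site.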

How the data were processed

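Values come from 19 scanner files, 1 per rat. Per the file headers, the deposited intensity of each spot is the Cy3 processed signal, background-subtracted and detrended by the scanner software, Agilent Feature Extraction 11.5.1.1 (also in the submitters' processing notes, which name limma without a version). The authors' value table holds log2 values for 22739 probes, all matched to the arrays; its scale is log2 by its values, and its normalization and centring are not given in the sources used here.

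Log2 of the processed intensity minus each array's 75th percentile was taken, spots marked as outliers and control spots were left out (58717 of 62976 spots stayed), and spots of 1 probe were averaged. A probe was kept if well above background on at least 5 of 19 arrays. Of the probe names, 21109 were named by accession in the RefSeq gene table (assembly GRCr8, names and upstream sequences only), 1977 through another probe, and 22512 under the files' own name. Where a gene had several kept probes, the brightest on average was used. The headers give rn4 as the build of the probe coordinates.

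A single limma model (version 3.58.1, in R 4.3.3, with data.table at version 1.17.8) took all groups, with 16 residual degrees of freedom and no covariate. Benjamini-Hochberg adjustment ran over all 24238 genes of each comparison, and tests are two-sided. The fit was tested on simulated data. Alternatives were other normalizations and background corrections, the authors' table, other filters and probe rules, slide and row terms, single slides, the replicate number as a block, and leaving out each rat. The number of arrays limits the precision.

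Each array is 1 rat. Replicate numbers were taken from the labels, and same-numbered arrays shared a slide. Their deviations from the group means correlated at 0.13 to 0.59 (DKD and Sham), 0.14 to 0.42 (DKD+enarodustat and DKD) and 0.14 to 0.47 (DKD+enarodustat and Sham). Arrays of 1 slide with different numbers were not compared, so these values cannot tell a pairing of rats from the shared slide. The main fit therefore took the rats as unpaired, and the replicate number as a block was run only as an alternative.

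The 10 members are named in full. Of each other list the 3 genes with the smallest adjusted p in DKD over Sham and in DKD+enarodustat over DKD could be named, any relative of a member, and the 3 genes most like each member. The members and lists were chosen with earlier results of these data known. Genes called in a list but outside that rule (Adgrf5, Aqp6, Slc12a7, Slc4a8, Hsd11b2) or given to show how a sum is made up (Adgre1) were named after their values were seen.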

Additional observations from a re-analysis of the deposited data

How the results depend on the processing

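Over all alternatives, 850 differences of single members were recomputed: 826 kept the side of the threshold they had, 10 lost a call, 14 gained one and 0 turned round a called difference. Only differences with a call could lose it, and none did when 1 rat was left out. In the other alternatives Slc26a4 lost its DKD over Sham call in 2 of 16. In DKD+enarodustat over Sham, Slc26a4 lost its call in 2 of 14, Atp6v1b1 in 3 of 14 and Rhcg in 3 of 14. Members without a call changed sign in 62 of them (Atp6v0a4, Foxi1, Car2, Slc4a9, Rhbg and Slc4a1). The number of members called higher was 0 in every alternative run. In DKD over Sham, 1 member was called lower; it was 2 in the authors' value table and 0 on slide 1 alone and on slide 2 alone, and leaving out 1 rat gave 1 to 2. In DKD+enarodustat over DKD, 0 were called lower; it was 3 in the authors' value table and 1 with slide as a block, and leaving out 1 rat gave 0 to 1. In DKD+enarodustat over Sham, 3 were called lower; it was 0 with slide row as a covariate, 0 on slide 1 alone and 1 on slide 2 alone, and leaving out 1 rat gave 3 to 4. With the replicate block the counts called lower were 1, 0 and 4, and the block changed no call but that of Atp6v0d2 (-0.43). Slc26a4 in DKD over Sham lay between -0.83 and -0.66 when 1 rat was left out, and was called each time; on single slides it had 2 arrays a group (fewer samples). Among shared V-ATPase subunits, the authors' value table called 5, 4 and 11 lower in DKD over Sham, DKD+enarodustat over DKD and DKD+enarodustat over Sham, against 2, 1 and 6. The cause of the other changes was not tested. Row 2 alone, and DKD without its row 2 arrays, were chosen after seeing the data. DKD without those arrays gave -0.63 for Slc26a4 in DKD over Sham and -0.70 (adjusted p = 0.051, limma) in DKD+enarodustat over DKD. Signal over background did not limit the members, while row on the slide and group can be separated only through 2 DKD arrays, which also had the highest adipocyte (4.05 and 4.32) and erythroid (6.69 and 6.98) summed levels among DKD arrays.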
